A study of Mus musculus with 8 samples.

Results

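Mouse bile duct epithelial cells were compared before and after they left the liver, and the question was which genes were shifted in every cultured library, from the first hours in the gel to grown organoids. All 8 libraries of the series entered the comparison, 6 of cultured cells and 2 of fresh cells. Adult male mice of strain C57/B6 with healthy livers gave the cells, which were sorted by flow cytometry for EpCAM, a surface adhesion protein of ductal epithelium. The fresh group comprised 2 libraries taken straight from the sort (0 h). The cultured groups, all grown in Matrigel with organoid medium, comprised 2 libraries at 12 h, 1 at 24 h, 1 titled 48h whose other labels give 24 h, and 2 of organoids, at 6 days. The one titled 48h formed its own group.

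The bile ducts drain the liver, and their epithelium forms a sealed tube that modifies bile and meets bacterial products coming up from the gut. Ductal cells rarely divide in a healthy liver but can re-enter the cell cycle after injury, and in a gel with growth factors they form hollow cysts that can be propagated as organoids. Taking them out of the tissue requires enzymes and sorting, steps known to switch on immediate early genes, heat shock genes and inflammatory mediators. The fresh libraries are themselves cells that went through dissociation and sorting, so a level that is low in culture may be the lower of the pair or the fresh level the raised one, and these cannot be told apart here.

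Values are RPKM, which divides reads by gene length and by the depth of the library, and the effective depth was between 13826240 and 28457663 reads. In a gene of 2 kb, 1 read was worth between 0.0176 and 0.0362 RPKM. Between 10605 and 11263 genes reached 1 RPKM in 7 libraries, against 8814 in the 24 h library, and the values of organoid library 1 summed to 446034 RPKM, the highest total. The 8 ductal markers summed to 17807 and 20972 RPKM in the fresh libraries and to between 9054 and 16274 RPKM in culture. Most of each sum was Spp1, at 14186 and 17735 RPKM fresh and 5841 to 14561 RPKM in culture. Summed markers of hepatocytes and of mesothelial, mesenchymal and endothelial cells were lower in every cultured library than in both fresh ones, while those of immune cells and red cells overlapped. Of the 8 immune markers, however, 6 were at 0 in each cultured library, against 1 and 3 in the fresh libraries. The 8 hepatocyte markers summed to 935 and 963 RPKM fresh and to between 7.08 and 165 RPKM in culture, with the library titled 48h highest and Cps1 at 0 in all 6, and 5 mesothelial markers went from 25.5 and 35.7 RPKM to between 0 and 5.78 RPKM. In bulk RNA, fewer cells of a type and less RNA per cell cannot be told apart.

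Of 12900 genes tested with limma on log2(RPKM + 1), 1778 (13.8%) differed between the average of the 4 cultured groups and fresh cells at a Benjamini-Hochberg adjusted p under 0.05, 913 higher (7.08%) and 865 lower (6.71%) in culture. A gene was counted as shifted in every cultured library when it passed and all 6 cultured values lay beyond both fresh values. This held for 796 genes higher (6.17% of all tested) and 789 genes lower (6.12%). The distance between the nearest cultured and the nearest fresh library is called the gap here, and a gap of at least 1 on the log2(RPKM + 1) scale means at least a doubling or halving of that value in all 12 pairings. That stricter limit was met by 276 genes higher (2.14%) and 405 genes lower (3.14%). Without the test, the values alone did not overlap for 2068 genes higher (16.0%) and 1395 lower (10.8%). The labels do not say that the libraries came from separate animals, so the p-values rest on a spread that may be technical. Each call rested on both fresh libraries and was lost in limma when either was left out. With 28 arrangements of 6 against 2 libraries, a doubled one-sided p of an exact permutation cannot go below 0.0714.

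The balance of directions depended on how libraries were scaled. The median difference over all genes tested was 0.20, and centring each library on its median moved it to -0.06 and the split to 584 higher and 1154 lower in every library, while a filter at a mean of 5 RPKM made it 983 higher and 470 lower. The higher and lower sets also differed in level. A mean of 5 RPKM or more was reached by 762 of the 796 higher genes, against 377 of the 789 lower genes. Leaving out organoid library 1 raised the higher set from 796 to 1231 genes and gave 873 in the lower set.

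**Figure D1:**
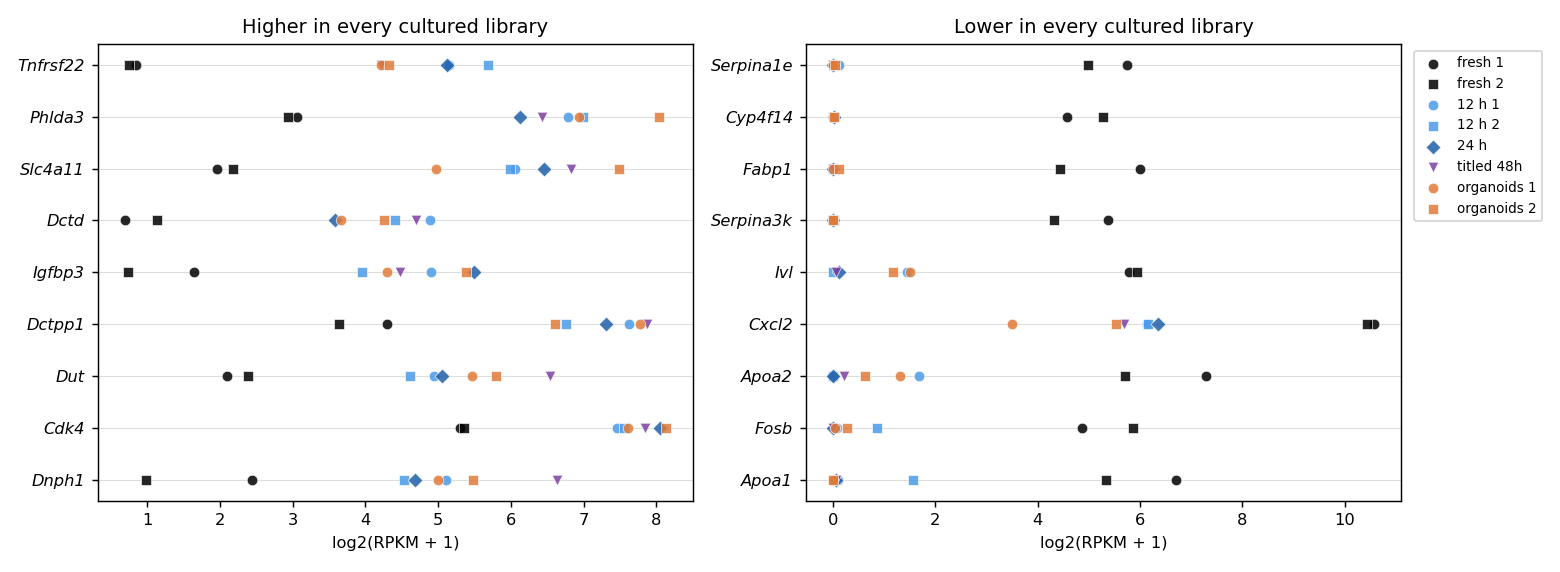
Expression in all 8 libraries, as log2(RPKM + 1) on the horizontal axis, of the 9 higher and 9 lower genes with the widest gap between fresh and cultured libraries. Each point is 1 library, fresh in black and cultured in colour, and the 2 fresh points of each gene stand apart from all 6 cultured points.

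Promoter letters are shown for 5 genes described below, chosen after their matches were seen because each holds a short known motif: the NF-kB motif in a chemokine gene, the AP-1 motif in a coagulation gene and a junction gene, the CRE in a stress response gene and the E-box, the site of MYC, in a cell cycle gene. Each run is the 250 bases before the gene's start, 5′ to 3′ on the strand of the gene, from RefSeq on GRCm38.p6, and capitals mark the motif. Matches were sought on both strands.
Cxcl2 (plus strand, chr5:90903649-90903898): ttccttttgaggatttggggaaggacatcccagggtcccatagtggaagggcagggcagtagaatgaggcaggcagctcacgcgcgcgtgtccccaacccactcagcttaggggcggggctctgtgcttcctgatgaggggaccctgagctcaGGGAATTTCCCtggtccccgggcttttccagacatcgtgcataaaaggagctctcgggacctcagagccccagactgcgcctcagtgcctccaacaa
F3 (plus strand, chr3:121723287-121723536): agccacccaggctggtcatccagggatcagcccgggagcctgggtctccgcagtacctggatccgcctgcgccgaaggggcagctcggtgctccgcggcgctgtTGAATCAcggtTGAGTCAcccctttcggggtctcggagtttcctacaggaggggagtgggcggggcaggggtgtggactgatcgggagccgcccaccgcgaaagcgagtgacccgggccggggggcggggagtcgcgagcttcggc
Cldn4 (minus strand, chr5:134946935-134947184): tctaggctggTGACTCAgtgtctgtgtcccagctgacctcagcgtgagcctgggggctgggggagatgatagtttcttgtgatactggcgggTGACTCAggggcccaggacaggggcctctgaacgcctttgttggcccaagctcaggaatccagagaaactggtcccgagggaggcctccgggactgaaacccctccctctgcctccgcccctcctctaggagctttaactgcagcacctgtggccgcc
Ppp1r15a (minus strand, chr7:45526269-45526518): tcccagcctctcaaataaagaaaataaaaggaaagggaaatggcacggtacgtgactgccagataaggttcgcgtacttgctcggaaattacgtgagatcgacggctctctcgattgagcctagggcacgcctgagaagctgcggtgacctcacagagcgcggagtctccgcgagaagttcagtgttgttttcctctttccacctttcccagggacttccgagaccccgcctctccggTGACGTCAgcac
Cdk4 (plus strand, chr10:127063285-127063534): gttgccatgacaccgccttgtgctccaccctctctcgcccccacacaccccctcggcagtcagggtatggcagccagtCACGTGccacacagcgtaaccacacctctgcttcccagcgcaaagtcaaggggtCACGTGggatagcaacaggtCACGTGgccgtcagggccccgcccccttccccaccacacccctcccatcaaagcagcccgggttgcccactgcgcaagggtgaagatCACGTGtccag
The Cxcl2 promoter held 2 overlapping matches to the NF-kB motif (GGGA and CC with any 4 bases between them), 1 on each strand, beginning 97 and 96 bases before the start, a motif found in 17.6% of 32851 promoters of that length. The AP-1 motif TGANTCA stood 146 and 135 bases before F3 and 240 and 158 bases before Cldn4, and 6.75% of promoters hold it. The CRE TGACGTCA, present in 1.55% of promoters, began 12 bases before Ppp1r15a. Cdk4 had 4 copies of the E-box CACGTG, at 172, 118, 98 and 11 bases before its start, where 6.02% of promoters hold at least 1. These matches describe letters and not bound sites.

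The gene with the widest gap on the higher side was Tnfrsf22, a decoy receptor for the death ligand TRAIL that lacks a signalling death domain. It was at 0.793 and 0.683 RPKM in the fresh libraries and at 17.6 to 50.2 RPKM in culture (median 26.5), so the lowest cultured library was 22.2-fold above the highest fresh one. Its level was highest at 12 h (34.6 and 50.2 RPKM) and 24 h (33.98 RPKM) and lower in the library titled 48h (17.6 RPKM) and the organoids (17.6 and 19.0 RPKM). Tnfrsf23, the neighbouring decoy receptor on chromosome 7 (143665809 to 143685872, against 143634806 to 143649661), went from 3.26 and 1.14 RPKM to between 16.9 and 31.4 RPKM. The 2 genes are close copies, and the division of reads between them is uncertain. Among 25 genes of the list of TNF receptors and apoptosis, these and the pore former Bax were the 3 higher in every cultured library, and 3 were lower (12% each, against 6.17% and 6.12% of all genes). Of these the death receptor Fas fell from 22.9 and 21.7 RPKM to between 0 and 5.05 RPKM with a median of 0.116 RPKM (difference -3.89 ± 0.36 (SE), adjusted p = 0.00541), listed at 0 in both 12 h libraries and the library titled 48h and at 3.17 and 5.05 RPKM in organoids.

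Known targets of the tumour suppressor p53 split in the same way, with 4 of 20 higher and 4 lower in every library (20% each, against 6.17% and 6.12% of all genes). Phlda3, a p53 target that restrains AKT, was at 7.36 and 6.67 RPKM fresh and between 68.6 and 262 RPKM with a median of 115 RPKM in culture (difference 3.73 ± 0.36 (SE), adjusted p = 0.00558), and organoid library 2 was the highest. Cdkn1a, the p53-induced inhibitor of cyclin-dependent kinases, went the other way, from 423 and 648 RPKM to between 44.3 and 172 RPKM. Sesn2, a stress-induced regulator of mTORC1, fell from 93.4 and 93.1 RPKM to between 4.15 and 24.9 RPKM. The median difference of the list was -0.16, against 0.20 over all genes tested.

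Genes of DNA replication and nucleotide supply were, among lists with at least 9 genes tested, the one most often higher in every cultured library. Of 34 S phase genes tested, 15 passed higher, where 7.08% of all genes did. Higher in every library were 9 (26.5%, against 6.17% of all genes), none was lower, and the median difference was 1.52. The 9 became 7 after centring and 13 under quantile normalization, while the 796 over all genes became 584 and 873. Dctd, which turns dCMP into dUMP for thymidylate synthesis, was at 0.615 and 1.195 RPKM fresh and between 10.98 and 28.5 RPKM with a median of 19.1 RPKM in culture, with 28.5 and 20.2 RPKM at 12 h and 10.98 to 25.0 RPKM in the later 4 libraries, ranges that overlap. Dut, which removes dUTP, went from 3.29 and 4.21 RPKM to between 23.5 and 91.8 RPKM with a median of 37.7 RPKM, and its lowest cultured library was 5.58-fold above the highest fresh one. Rpa2, a subunit of the protein that coats single-stranded DNA, rose from 2.23 and 3.31 RPKM to between 8.61 and 33.1 RPKM. Outside the list, Dctpp1, which degrades dCTP and its modified forms, and Dnph1, which cleaves a modified deoxyuridine monophosphate, were also among the 14 leading genes. Dctpp1 was at 18.7 and 11.5 RPKM fresh and 96.5 to 233 RPKM in culture, and Dnph1 at 4.45 and 0.985 RPKM and 22.2 to 98.0 RPKM.

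Cdk4, the kinase that drives cells through G1 with D cyclins and whose promoter letters are printed above, was at 38.5 and 39.9 RPKM in the fresh libraries and between 175 and 280.0 RPKM with a median of 211 RPKM in culture (difference 2.49 ± 0.27 (SE), adjusted p = 0.00663). The fresh values were almost equal, and the lowest cultured library was 4.39-fold above the higher of them. Its inhibitor Cdkn2b was also higher in every library, from 11.01 and 12.0 RPKM to between 18.3 and 141 RPKM, with the organoids highest. The G1 list as a whole had 2 of 20 genes higher (10%) and 1, Cdkn1a, lower (5%), near the 6.17% and 6.12% of all genes.

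Mitotic genes mostly did not meet the rule for every library. Of 34 G2 and M phase genes 21 passed higher in the average, where 7.08% of all genes did. Of these only Cdk1, Cks2 and Cks1b lay above both fresh values in all 6 cultured libraries (8.82%, near the 6.17% of all genes). Under quantile normalization 18 of the 34 did, against 873 of all 12900 genes. Between organoids and 12 h 23 of the 34 differed, against 2.0% of all genes. Cdk1, the kinase of mitotic entry, was at 1.16 and 1.27 RPKM fresh, 4.12 and 2.47 RPKM at 12 h, 11.005 RPKM at 24 h, 131 RPKM in the library titled 48h and 48.2 and 73.1 RPKM in organoids. Mki67, a nuclear protein of dividing cells, passed in the average (difference 1.48 ± 0.32 (SE), adjusted p = 0.0313) but was at 0 and 0.201 RPKM at 12 h and 0 RPKM at 24 h, below its fresh values of 0.319 and 0.321 RPKM. The list median was between -0.17 and -0.14 in the 12 h and 24 h libraries and between 2.69 and 4.04 in the library titled 48h and the organoids. The S phase list was at 2.04 in the 24 h library.

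**Figure D2:**
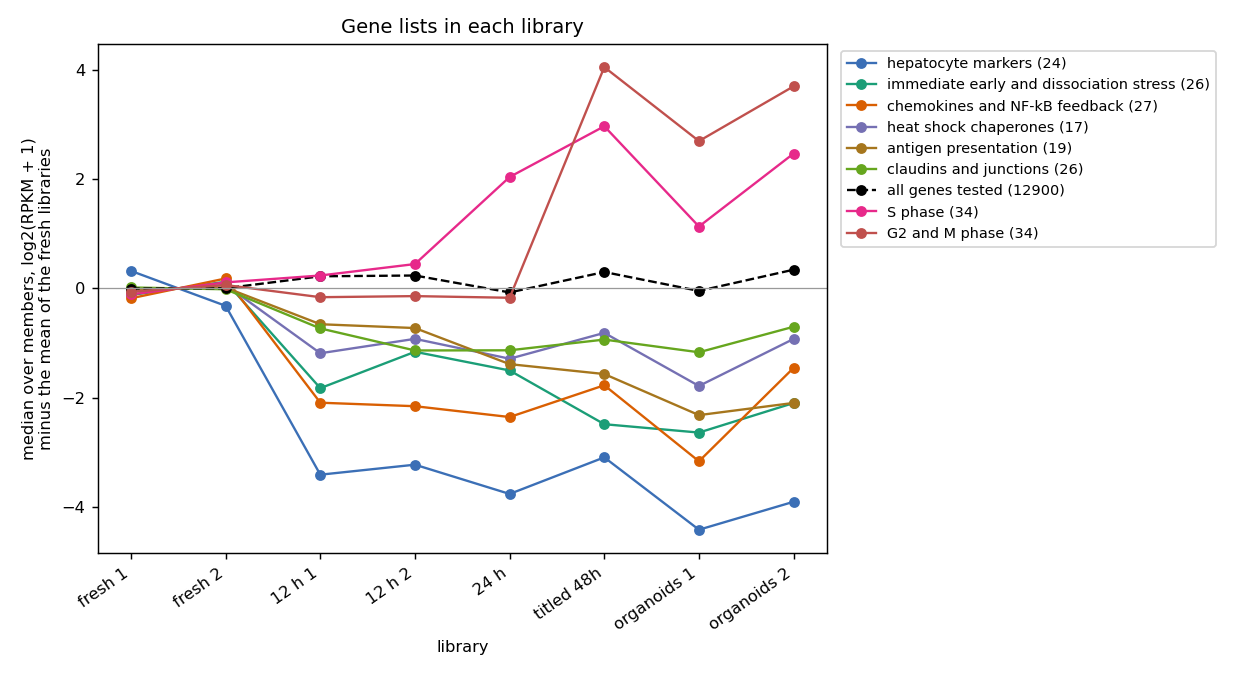
Median over the members of 8 gene lists, and over all genes tested (dashed), of log2(RPKM + 1) minus the mean of the fresh libraries, by library on the horizontal axis. Members tested are in parentheses. Hepatocyte markers lie between -4.41 and -3.09 in every cultured library, while G2 and M phase genes are near 0 in the 12 h and 24 h libraries and higher in the library titled 48h and the organoids.

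Other leading higher genes had roles in transport, growth factor binding and the cytoskeleton. Slc4a11, a membrane transporter, was at 2.89 and 3.54 RPKM fresh and between 30.3 and 178 RPKM with a median of 76.4 RPKM in culture, lowest in organoid library 1 and highest in organoid library 2. Igfbp3, which binds insulin-like growth factors, went from 2.12 and 0.673 RPKM to between 14.5 and 43.9 RPKM. It was the single gene of 9 in the IGF list higher in every library (11.1%, against 6.17% of all genes). Tubb5, a beta tubulin, was at 36.7 and 54.2 RPKM fresh, 230.5 and 251 RPKM at 12 h and 577 and 523 RPKM in organoids. H1f0, a linker histone, Commd3, a small regulator of protein sorting, and Cdpf1 completed the 14 leading genes. They stood at 96.3 to 276, 66.5 to 255 and 23.7 to 57.2 RPKM in culture, against 22.2 and 13.7, 15.4 and 15.2 and 5.02 and 3.58 RPKM fresh.

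YAP and TEAD targets moved in both directions, 4 of 24 higher and 4 lower in every library (16.7% each, against 6.17% and 6.12% of all genes). Their median of 0.21 turned to -0.04 after centring. Besides Igfbp3, the LIM protein Ajuba rose from 8.37 and 9.30 RPKM to between 27.3 and 103 RPKM. F3, the tissue factor that starts coagulation and whose promoter is printed above, fell from 2287 and 2344 RPKM to between 53.2 and 627 RPKM with a median of 224 RPKM (difference -3.53 ± 0.35 (SE), adjusted p = 0.00589). Its 12 h values of 306 and 627 RPKM stood above the organoid values of 53.2 and 59.4 RPKM. Etv4, an ETS factor downstream of ERK, was the single higher gene of 22 in the list of ERK feedback and ErbB ligands (1.29 and 1.19 RPKM fresh, 6.78 to 30.5 RPKM in culture). Fosl1 (792 and 1127 RPKM fresh, 2.16 to 169.9 RPKM in culture) and the ERK phosphatase Dusp5 (100.1 and 199 RPKM fresh, 1.87 to 35.9 RPKM in culture) were among 4 lower in that list. The shares of the list were 4.55% higher and 18.2% lower, against 6.17% and 6.12% of all genes.

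Hepatocyte genes were, among the same lists, the one most often lower, 18 of 24 tested in every cultured library (75%, against 6.12% of all genes), with a median difference of -3.36. Alb, the main plasma protein made by hepatocytes, was at 488 and 660.1 RPKM in the fresh libraries and between 0.0309 and 58.9 RPKM with a median of 23.8 RPKM in culture, lowest in the organoids (0.0309 and 3.72 RPKM) and highest in the library titled 48h (58.9 RPKM). Fabp1, a fatty acid carrier, fell from 63.1 and 20.6 RPKM and was listed at 0 in 5 cultured libraries, with 0.0894 RPKM in organoid library 2. The apolipoproteins Apoa1 (103 and 39.4 RPKM fresh, at most 1.97 RPKM in culture), Apoa2 (154 and 50.9 RPKM fresh, at most 2.22 RPKM) and Apoc3 (29.4 and 10.8 RPKM fresh, at most 0.0471 RPKM) fell with them. Apoa1 and Apoc3 are neighbours on chromosome 9 (46228580 to 46230466 and 46232933 to 46235636). The protease inhibitors Serpina1e, Serpina1c and Serpina3k, all on chromosome 12, were also among the 14 leading lower genes. Serpina1e was at 52.99 and 30.6 RPKM fresh and at 0 in 4 of the 6 cultured libraries, though reads of the Serpina1 copies cannot be assigned with certainty. The summed hepatocyte markers given above include Alb, Apoa1 and Serpina1c of these genes, and the share of hepatocyte RNA in the fresh libraries as their source was not tested.

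Genes of drug metabolism and lipid handling, many of them hepatocyte products, were lower in 6 of 17 (35.3%) and 5 of 19 cases (26.3%) and higher in none. The lower share over all genes was 6.12%. Ces1d, a carboxylesterase, fell from 329.5 and 453 RPKM to 26.1 and 18.2 RPKM at 12 h and to at most 1.195 RPKM later (difference -7.03 ± 0.38 (SE), adjusted p = 0.00444), the largest average decrease of all genes tested. It has close copies on chromosome 8, so its reads are uncertain. Apoe, a lipoprotein made by many cell types, went from 1960.1 and 2515 RPKM to 392 and 394 RPKM at 12 h, 179 RPKM at 24 h, 136 RPKM in the library titled 48h and 0.744 and 5.53 RPKM in organoids. Cyp4f14, a fatty acid hydroxylase, was at 22.8 and 37.5 RPKM fresh and never above 0.0217 RPKM in culture. In all, 50 of the 789 lower genes were listed at 0 in all 6 cultured libraries. They could enter the test only through the 2 fresh libraries, so the filter fixed their direction. Fabp1, Apoc3, Cyp4f14, Fosb and Pdk4, under 1 RPKM in all 6 cultured libraries, entered in the same way. Such genes count in the lower set and its lists.

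Immediate early genes, which cells switch on rapidly after a stimulus, were lower in culture wherever they met the rule. Of 26 such genes 15 were lower in every cultured library (57.7%, against 6.12% of all genes) and none higher, with a median difference of -1.96. Fos was at 371 and 354 RPKM fresh and between 2.15 and 60.95 RPKM with a median of 35.9 RPKM in culture (difference -4.13 ± 0.30 (SE), adjusted p = 0.00444). Its relative Fosb went from 28.1 and 57.5 RPKM to at most 0.818 RPKM, reached at 12 h. Atf3, a stress-induced repressor, fell from 387 and 603 RPKM to between 2.95 and 53.9 RPKM with a median of 22.8 RPKM, and Zfp36, which destabilises mRNAs of inflammatory mediators, from 272 and 339 RPKM to between 8.02 and 31.5 RPKM. The lowest value came from the 24 h library for Fos, the library titled 48h for Atf3 and organoid library 1 for Zfp36.

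Protein stress genes that met the rule were lower as well. Among heat shock chaperones 7 of 17 were lower in every library (41.2%, against 6.12% of all genes) and none higher (median -1.34). They included Hspa1a (62.7 and 79.5 RPKM fresh, 0.975 to 15.2 RPKM in culture) and Hspb1 (106 and 139 RPKM fresh, 5.89 to 39.01 RPKM in culture). Reads of Hspa1a and its near-identical neighbour Hspa1b cannot be divided with certainty. Of 20 genes of the unfolded protein and integrated stress response 8 were lower (40%, against 6.12% of all genes) and none higher (median -0.88). Chac1, a glutathione-degrading target of ATF4, fell from 174 and 176 RPKM to between 0.0636 and 19.99 RPKM with a median of 6.61 RPKM and Herpud1, which serves protein disposal at the endoplasmic reticulum, from 522 and 484 RPKM to between 35.1 and 102 RPKM. Ppp1r15a, which restores translation after stress and carries the CRE printed above, went from 235 and 321 RPKM to between 4.72 and 51.6 RPKM, with the lowest value in the library titled 48h.

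Inflammatory mediators that met the rule were all lower. Of 27 chemokine and NF-kB feedback genes 10 were lower in every library (37.0%, against 6.12% of all genes) and none higher (median -1.95). After centring on library medians 16 were lower, while the count over all genes rose from 789 to 1154. Cxcl2, a neutrophil-attracting chemokine, was at 1523 and 1373 RPKM in the fresh libraries and between 10.2 and 80.7 RPKM with a median of 60.1 RPKM in culture (difference -4.82 ± 0.53 (SE), adjusted p = 0.00663). Organoid library 1 was lowest at 10.2 RPKM, and the other 5 cultured libraries lay between 45.4 and 80.7 RPKM. Icam1, an adhesion molecule for leukocytes, fell from 902 and 1273 RPKM to between 61.1 and 131 RPKM with a median of 110.0 RPKM and the cytokine Lif from 85.2 and 134 RPKM to between 1.61 and 11.01 RPKM. Sensors of bacterial products were among the lower genes. In the list of complement and innate sensors 6 of 14 were lower (42.9%, against 6.12% of all genes) and none higher. Among them were Cd14 (661 and 716 RPKM fresh, 76.7 to 211 RPKM in culture), its partner Ly96 (72.7 and 94.7 RPKM fresh, 7.34 to 32.0 RPKM in culture) and Tlr2 (43.6 and 43.0 RPKM fresh, 0.935 to 11.6 RPKM in culture).

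Antigen presentation genes were lower in 10 of 19 cases (52.6%, against 6.12% of all genes) and higher in none, with a median of -1.37. The class II genes H2-Ab1 (37.4 and 24.8 RPKM fresh, at most 4.72 RPKM in culture), H2-Aa (10.8 and 9.95 RPKM fresh, at most 1.40 RPKM) and H2-Eb1 (14.2 and 13.9 RPKM fresh, at most 1.75 RPKM) were at 0 in both organoid libraries. H2-Ab1 was at 3.09 and 4.72 RPKM at 12 h, whereas H2-Aa and H2-Eb1 had their highest cultured value in 1 of the 12 h libraries and were at 0 in the other. Copies of the class I and class II genes share sequence, which makes single members uncertain. Class II is also the mark of antigen-presenting immune cells, whose 8 markers summed to 28.6 and 19.0 RPKM in the fresh libraries and to between 4.88 and 24.1 RPKM in culture. Ptprc, Adgre1 and Tyrobp of that list were at 0 in all 6 cultured libraries, and Ptprc and Adgre1 also in fresh library 2. The part of immune cells in these genes was not tested. Csf1r, the receptor of the macrophage growth factor, was lower in every cultured library (5.21 and 10.9 RPKM fresh, 0.0977 to 1.92 RPKM in culture). Of 23 interferon response genes 1 was higher (4.35%, against 6.17% of all genes) and 3 were lower (13.0%, against 6.12%). After centring or quantile normalization 0 were higher and 4 lower, while the lower count over all genes rose from 789 to 1154 and 1103. Among the acute phase and antimicrobial genes 5 of 17 were lower (29.4%, against 6.12% of all genes). They included Pigr, which carries antibodies into bile (126 and 42.5 RPKM fresh, 0.0518 to 9.20 RPKM in culture), and Hamp, the iron hormone hepcidin (20.3 and 35.9 RPKM fresh, 0 to 4.15 RPKM in culture).

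Genes of the seals and contacts between cells were lower more often than higher. Of 26 claudin and junction genes 9 were lower in every library (34.6%, against 6.12% of all genes). Only 1, Cldn2, was higher (3.85%, against 6.17%), and the median was -0.78. Cldn4, a tight junction claudin abundant in the fresh cells at 2637 and 2576 RPKM, was between 184 and 774 RPKM with a median of 503.85 RPKM in culture (difference -2.70 ± 0.45 (SE), adjusted p = 0.0165). Ocln, the tight junction protein occludin, fell from 159 and 158 RPKM to between 23.4 and 39.01 RPKM with a median of 31.9 RPKM, and the desmosomal cadherin Dsg2 from 129.6 and 161 RPKM to between 5.01 and 34.7 RPKM. Ivl, a crosslinked envelope protein of squamous epithelium, was among the 14 leading lower genes and went from 54.0 and 60.3 RPKM to at most 1.84 RPKM.

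Most ductal identity genes did not meet the rule. Of 23 tested, Krt23, Cldn4 and Cldn7 were lower in every library (13.0%, against 6.12% of all genes), though Cldn7 lost the call in 12 of 21 other settings. Foxa2 was higher (4.35%, against 6.17%), and 19 met neither. The list median was nonetheless -0.62, against 0.20 over all genes, and lay between -0.63 and -0.19 in the 6 cultured libraries. Centring gave 6 lower and 0 higher, and quantile normalization 3 lower and 0 higher. Over all genes these settings gave 1154 lower and 584 higher, and 1103 lower and 873 higher. Krt23, a keratin, fell from 541 and 439.8 RPKM to between 3.65 and 43.5 RPKM with a median of 22.4 RPKM. Epcam, the sorting marker, was at 1058 and 1144 RPKM fresh and between 513 and 1175 RPKM with a median of 889 RPKM in culture (difference -0.45 ± 0.30 (SE), adjusted p = 0.349), and its sign turned under quantile normalization (0.026). Krt19 (1649.7 and 1062 RPKM fresh, 162 to 1919.8 RPKM in culture, adjusted p = 0.192), Sox9 (239 and 301 RPKM fresh, 107 to 302 RPKM in culture, adjusted p = 0.167) and Spp1 (14186 and 17735 RPKM fresh, 5841 to 14561 RPKM in culture, adjusted p = 0.434) also did not pass and had differences of -1.28 ± 0.59, -0.71 ± 0.30 and -0.62 ± 0.50 (SE). In the ductal transport and cilium list 5 of 23 were lower (21.7%, against 6.12% of all genes) and 1 higher (4.35%, against 6.17%). They included the chloride channel Cftr (5.72 and 9.81 RPKM fresh, 0.186 to 1.93 RPKM in culture), the polycystic disease gene Pkhd1 (9.28 and 14.6 RPKM fresh, 0.274 to 3.01 RPKM in culture) and the glucose carrier Slc5a1 (27.5 and 38.2 RPKM fresh, 0.0352 to 11.7 RPKM in culture).

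Genes of the daily clock and of glucocorticoid hormones that met the rule were also lower. Of 18 clock output genes 6 were lower in every library (33.3%, against 6.12% of all genes) and none higher. Nr1d1, a repressor within the clock, fell from 168 and 144 RPKM to between 2.67 and 22.2 RPKM with a median of 14.8 RPKM (difference -3.85 ± 0.33 (SE), adjusted p = 0.00541). Its relative Nr1d2 was at 34.5 and 45.3 RPKM fresh and 2.50 to 17.0 RPKM in culture. The time of day at which cells were taken is not in the labels used here. Of 14 glucocorticoid targets 5 were lower (35.7%, against 6.12% of all genes) and none higher. Pdk4, which limits pyruvate oxidation in fasting, went from 3.96 and 6.01 RPKM to at most 0.130 RPKM. Retinoid genes split, with Rdh10, which makes retinal, higher (23.6 and 21.1 RPKM fresh, 57.8 to 149.9 RPKM in culture) and Dhrs3, which reverses that step, lower (36.6 and 60.1 RPKM fresh, 0.0314 to 11.3 RPKM in culture).

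**Figure D3:**
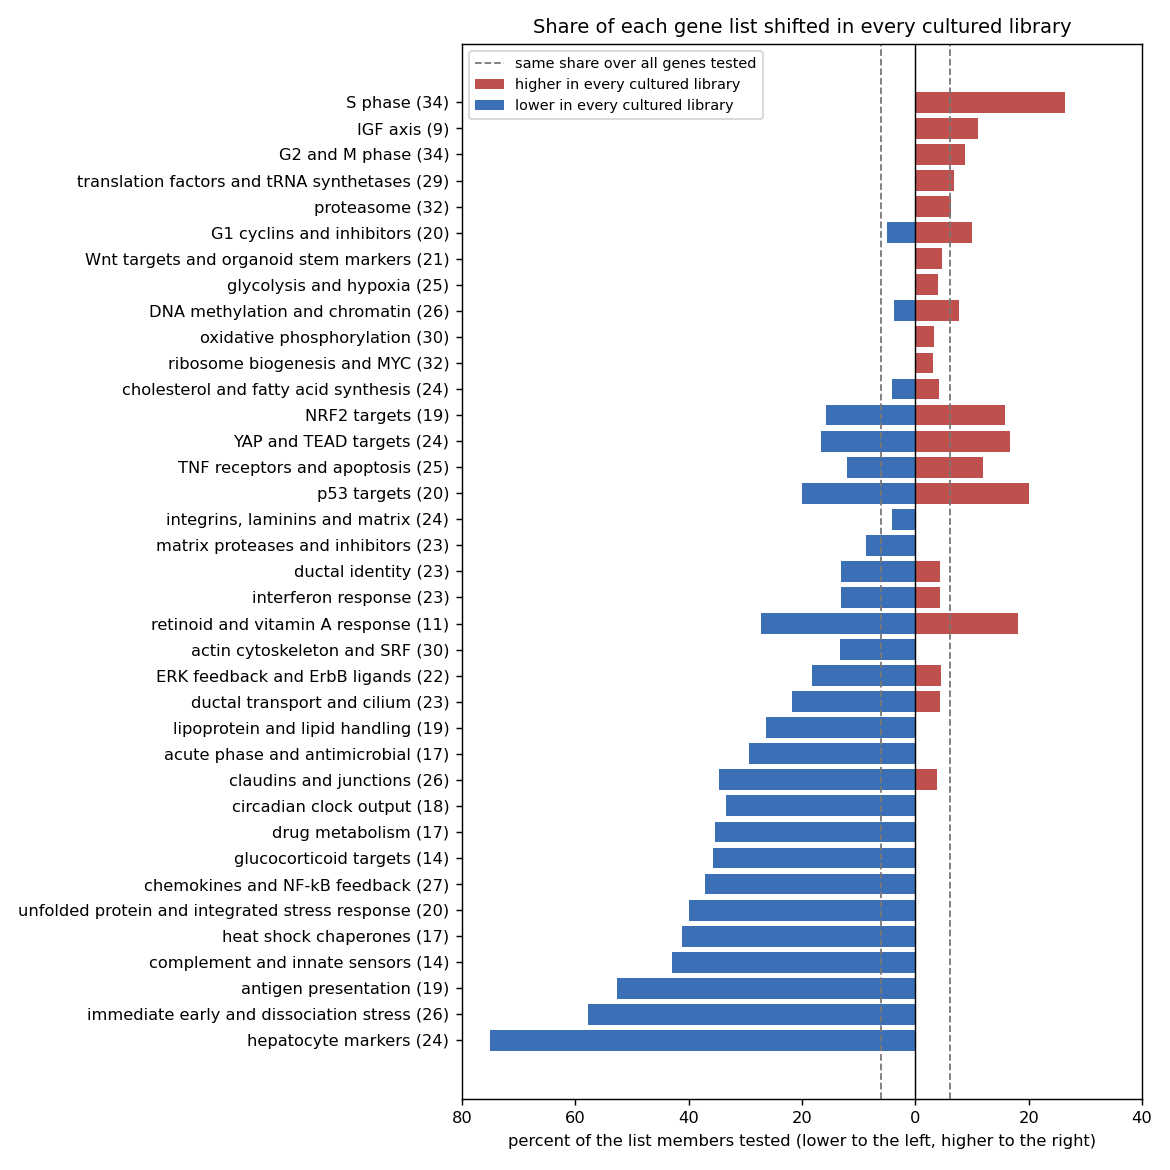
Percent of the tested members (number in parentheses) of each gene list with at least 9 genes tested that were shifted in every cultured library, higher in red to the right and lower in blue to the left, with the share over all genes tested as dashed lines at 6.17% and 6.12%. Hepatocyte, immediate early and antigen presentation genes reach farthest to the left, and S phase genes farthest to the right.

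The large housekeeping lists held few genes shifted in every library. Higher genes numbered 1 of 32 in ribosome biogenesis, 2 of 29 in translation (Eif5a and Eef1g) and 2 of 32 in the proteasome (Psmb5 and Psmb3). Oxidative phosphorylation had 1 of 30 (Cyc1) and glycolysis 1 of 25 (Pkm). These shares of 3.12% to 6.90% stood beside the 6.17% of all genes. Psmb3 and Cyc1 each lost the call in 12 of 21 other settings. Median differences, in the same order, were -0.32, 0.08, 0.60, 0.73 and 0.31, against 0.20 over all genes. In the 6 cultured libraries the oxidative phosphorylation median lay 0.52 to 1.22 above fresh and the proteasome median 0.23 to 0.76. A small count does not show an unshifted list. No member of these lists was lower. After centring on library medians 4 ribosome biogenesis and 2 translation genes were lower and 0 higher, and the proteasome had 1 in each direction. Centring also moved the counts over all genes tested, to 584 higher and 1154 lower. Pkm, the pyruvate kinase of growing cells, ranged from 95.9 RPKM at 12 h to 1513 RPKM in organoid library 1, against 38.1 and 31.7 RPKM fresh. The glycolysis and hypoxia list stood apart in that library, with a median of 3.43 above fresh, against between -0.05 and 0.64 in the other 5 cultured libraries. Of 19 NRF2 targets, 3 were higher and 3 lower (15.8% each, against 6.17% and 6.12% of all genes), and 1 and 4 after centring. The higher ones were led by the thioredoxin gene Txn1 (290.2 and 279.8 RPKM fresh, 490.0 to 1020.5 RPKM in culture). The lower ones were led by Osgin1 (215 and 303 RPKM fresh, 14.4 to 87.3 RPKM in culture) and Hmox1 (233 and 148 RPKM fresh, 9.93 to 70.4 RPKM in culture). Among 26 chromatin genes 2 were higher (7.69%) and 1 was lower (3.85%), near the 6.17% and 6.12% of all genes. The higher genes were Hmga2, an architectural protein of growing tissue, and Ezh2, the Polycomb methyltransferase. The lower gene was Kdm6b, which removes the mark Ezh2 writes. Hmga2 was at 0.252 and 0.0934 RPKM fresh and 1.53 to 7.08 RPKM in culture, Ezh2 at 2.31 and 1.71 RPKM fresh and 4.46 to 12.8 RPKM in culture, and Kdm6b at 20.9 and 37.2 RPKM fresh and 1.60 to 13.7 RPKM in culture. Of the remaining lists, actin genes were lower in 4 of 30 (13.3%), matrix proteases in 2 of 23 (8.70%) and integrins and matrix in 1 of 24 (4.17%), against 6.12% of all genes. Wnt targets were higher in 1 of 21 (4.76%, against 6.17%). Cholesterol and fatty acid synthesis had 1 of 24 in each direction (4.17%). The balance of that last list rested on the scaling, with 1 higher and 4 lower after centring and 1 higher and 5 lower under quantile normalization. Over all genes these 2 settings gave 584 higher and 1154 lower, and 873 higher and 1103 lower.

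Some genes were at a similar level in all 6 cultured libraries. Among those with a gap of 1 or more and a mean of 5 RPKM or more, the higher genes with the smallest spread over the 6 cultured libraries were Acp1, Ap1s1, Coq2, Pkig, Nedd8, Rnf5, Polr2g and Eef1g. Coq2, an enzyme of ubiquinone synthesis, was at 11.4 and 8.15 RPKM fresh and 43.4, 44.2, 44.9, 49.5, 40.1 and 44.5 RPKM from 12 h to the organoids. Nedd8, a ubiquitin-like modifier, was at 145 and 113 RPKM fresh and between 413 and 496 RPKM with a median of 449.6 RPKM in culture, and Ap1s1, a subunit of a vesicle coat adaptor, at 35.1 and 19.6 RPKM fresh and 124 to 166 RPKM in culture. On the lower side, leaving aside hepatocyte genes near 0, Gabarapl1, a protein of autophagosome membranes, was at 101 and 105 RPKM fresh and 32.6 to 47.5 RPKM in culture. Zfand5 and Wsb2 were the other such genes, at 17.1 to 25.1 and 4.94 to 8.62 RPKM in culture against 74.9 and 59.4 and 20.8 and 24.0 RPKM fresh.

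Some of the shifted genes also differed between culture times. Between organoids and 12 h 258 genes passed in limma (2.0%), 178 higher in organoids (1.38%) and 80 lower (0.62%). Among them were 6 of the 796 higher genes (0.754%) and 20 of the 789 lower genes (2.53%). The differences of this comparison use no fresh library, though its variances come from the fit of all 8 libraries. Of the 20, organoids were lower than 12 h in 17. Over all 4 cultured groups the moderated F test passed 537 genes (4.16%), of which 5 were in the higher set (0.628%) and 34 in the lower set (4.31%). A gene must have a small spread over the cultured libraries to lie wholly beyond the fresh ones, so a low share in these sets is partly built into the rule. Each side of the comparison with 12 h held 2 libraries, and a gene that did not pass is not shown to be steady. By values alone, both organoid libraries lay above or below both 12 h libraries for 413 of the higher genes (51.9%) and 393 of the lower genes (49.8%), against 44.9% of all genes tested.

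**Figure D4:**
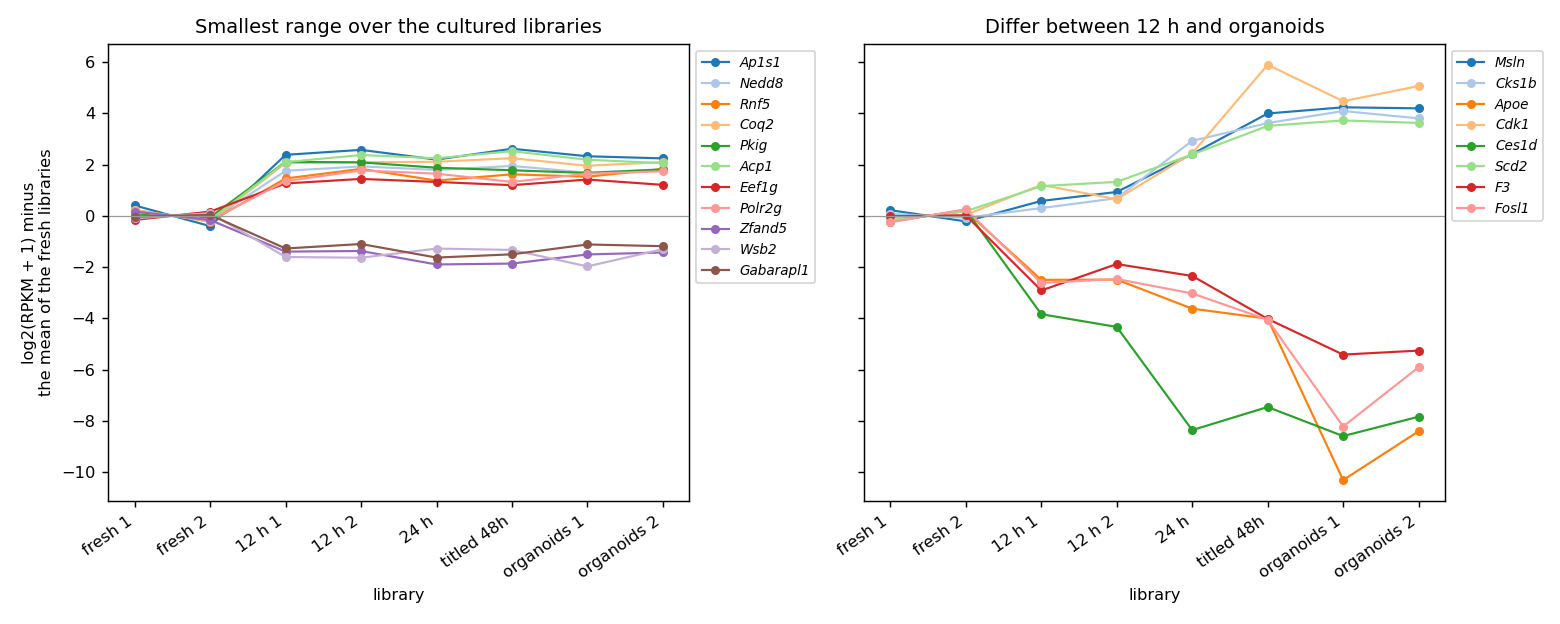
Log2(RPKM + 1) minus the mean of the fresh libraries, by library on the horizontal axis, for genes with the smallest spread over the cultured libraries (left) and for genes shifted in every cultured library that also differed between 12 h and organoids (right). Lines on the left stay in a narrow band from 12 h on, while on the right Apoe, Ces1d, F3 and Fosl1 are lower in both organoid libraries than in both 12 h libraries and Cdk1, Cks1b, Msln and Scd2 higher, with Cdk1 highest in the library titled 48h.

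Of the named genes shifted in every library, 4 were higher and 4 lower in organoids than at 12 h by test. Msln, a surface protein known from mesothelium, was at 29.3 and 21.4 RPKM fresh, 37.9 and 48.5 RPKM at 12 h, 137 RPKM at 24 h, 413 RPKM in the library titled 48h and 488 and 475 RPKM in organoids. It rose while the other mesothelial genes tested, Gpm6a (16.6 and 28.7 RPKM fresh, at most 5.78 RPKM in culture) and Nkain4 (7.88 and 5.84 RPKM fresh, at most 0.233 RPKM), fell, and Upk3b was at 0 in all 6 cultured libraries. Scd2, which desaturates fatty acids, climbed from 8.70 and 11.4 RPKM fresh to 23.5 and 26.5 RPKM at 12 h and 144 and 134 RPKM in organoids. Fosl1, an AP-1 subunit, was at 153 and 169.9 RPKM at 12 h and 2.16 and 14.7 RPKM in organoids, a difference of -4.52 ± 0.71 (SE, adjusted p = 0.0388).

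Passing in the average did not always mean a shift in every library. Of the 913 higher and 865 lower genes, 117 and 76 overlapped the fresh range in at least 1 cultured library. For 52 of the higher genes 5 of 6 libraries lay beyond, and the 24 h library was the exception most often, in 18. For 64 of the lower genes it was likewise 1 library, most often the one titled 48h, in 16. Rrm2, a subunit of ribonucleotide reductase, was at 0.852 and 1.80 RPKM fresh, 0.0172 and 2.16 RPKM at 12 h and 21.8 to 106 RPKM in the 4 later libraries. Gmnn, the replication licensing inhibitor geminin, was at 0.492 and 1.10 RPKM fresh and 0.284 RPKM at 24 h but at 10.2 and 2.58 RPKM at 12 h. Arg2, the mitochondrial arginase, was at 16.9 and 27.8 RPKM fresh and at 0.0729 to 3.64 RPKM in 5 cultured libraries, against 25.7 RPKM in the library titled 48h.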

How the data were processed

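RNA from sorted EpCAM-positive mouse liver cells was extracted with a micro column kit, copied by Smart-seq2 and tagmented with Nextera XT, per the labels' protocols. The authors deposited 1 table of RPKM values for 47729 Ensembl genes in 8 libraries, and per the submitters' processing notes they used build GRCm38 and edgeR. Aligner, counter, strandedness and scaling factor were not given in the sources used here, so reads of antisense or overlapping genes may be mixed. GENCODE M21 named 47310 identifiers and left 419 unnamed, and 21036 genes were at 0 in every library.

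From these values, 88.3% to 91.2% of low values per library were whole multiples, within 0.01, of the value of 1 read, which gave the effective reads. A count of 0 allows up to 3 reads, which equal 0.0527 to 0.108 RPKM in a gene of 2 kb, a limit that covers counting error only. Genes that reached 1 RPKM in 2 or more libraries entered limma 3.58.1 (R 4.3.3) on log2(RPKM + 1), so differences of low genes are understated. A gene under 1 RPKM in every library of 1 side, fresh or cultured, entered only through the other side. The model had 1 coefficient per group (5 groups, 3 residual degrees of freedom, prior 3.65) and variances that follow the mean. The contrast was the equally weighted mean of the 4 cultured groups minus fresh, and log2 differences are given with their SE. Tests were two-sided, with Benjamini-Hochberg adjustment over all genes of a comparison and a threshold of 0.05. On simulated tables (10 runs of 12900 genes) it called 2.8% of 2-fold, 55.8% of 4-fold, 91.4% of 8-fold and 99.4% of 16-fold changes and 0.0717% of unchanged genes. These folds are of RPKM + 1. Few genes were changed (500 per size over all runs), and the noise was independent and normal with the variances of the fit. The shares hold for those settings and may differ in the real data.

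The comparison, 42 gene lists of 969 entries (855 tested) and the naming rule were chosen with earlier results of these data known, so lists are described by counts and medians only. Named genes (135) were the 14 higher and 14 lower genes with the widest gap, up to 3 per list, the 8 per direction with the smallest spread in culture, 4 per direction that passed but overlapped, and 7 fixed genes. Of these and the markers, 3 genes are not reported here. Predicted, ribosomal protein, small RNA, pseudogene and mitochondrial genes entered only through a list or the fixed genes. Promoters of 82.2% of the higher and 70.9% of the lower genes with a gap of at least 1 were in the RefSeq table, under the 80% needed for the lower set, so motif shares were not compared between sets. Alternatives covered the pseudocount, filters, scaling, the weighting and grouping of libraries, the variance model and each library left out.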

Additional observations from a re-analysis of the deposited data

Results flagged for a closer look

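Under culture the 12 h libraries and the organoids differed from each other, by limma, for 11 of the named genes, and these are the results singled out here, as log2 differences of organoids minus 12 h with adjusted p between 0.0184 and 0.0395. Organoids were higher for Msln (3.46), Cks1b (3.45), Cdk1 (3.84), Scd2 (2.43), Rrm2 (4.70), Mki67 (2.68) and Asf1b (3.81). They were lower for Apoe (-6.87), Ces1d (-4.13), F3 (-2.94) and Fosl1 (-4.52). Of these Rrm2, Mki67 and Asf1b overlapped the fresh range in at least 1 cultured library, and the other 8 were shifted in every one. Groups held at most 2 libraries, so single outlying libraries were not tested for.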

How the results depend on the processing

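Counts are given as genes passing (higher, lower) and then those shifted in every library (higher, lower). They were 1778 (913, 865) and 796, 789. With a mean of at least 5 RPKM, 548 genes passed lower and 470 were lower in every library. Without a filter, 384 were higher in every library. A single coefficient for all cultured libraries gave 995 (465, 530) and 465, 530, and 963 of the 1585 genes shifted in every library were shared. Joining the library titled 48h with the 24 h library gave 1171 (569, 602) and 556, 594. Library weights gave 4940 (2947, 1993) and 1812, 1272. Requiring a pass in each of the 4 cultured groups against fresh, comparisons that share the fresh libraries, left 174 (50, 124) and 50, 124. Centring raised the genes that differ among the cultured groups from 537 to 811. Quantile normalization gave 873 higher and 1103 lower in every library.

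Leaving out single libraries gave between 0 and 2404 genes passing (0 to 1442 higher, 0 to 1063 lower), and 0 to 1231 higher and 0 to 938 lower in every library. Each 0 came from leaving out a fresh library, which leaves that group with 1 library assumed to vary like the others. Leaving out a cultured library gave at least 1718 passing.

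Deviations of same-numbered libraries from their group means correlated at 0.195 (fresh and 12 h), 0.224 (fresh and organoids) and 0.0175 (12 h and organoids). With 2 libraries per group, these values cannot show whether the replicate numbers pair the libraries. With the replicate number as a block on the 6 numbered libraries 1583 genes passed (725 higher and 779 lower in every library), against 1438 (654 and 736) in the same libraries without it.

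Over the named genes and all settings 2365 of 2789 values kept direction and side of the threshold, 421 lost the call, 2 gained it and 1 turned in sign, Epcam under quantile normalization (0.026). Of the 122 named genes shifted in every library, 48 passed at each culture time. Depth limits genes near 0, where 3 reads equal up to 0.108 RPKM at 2 kb.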
